A study of Mus musculus with 5 samples.

Results

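Immediate early genes are transcribed within minutes of a signal without new protein synthesis, and 10 of them were followed here through 5 RNA sequencing libraries of C57BL/6 mouse blood cells. The genes were taken from a fixed list of names, Fos, Fosb, Jun, Junb, Jund, Egr1, Zfp36, Ier2, Dusp1 and Atf3. That list was drawn up with earlier results of these data known. All 10 were found in both kinds of table, as 11 of 34315 features in the granulocyte tables and 11 of 38166 in the stem and progenitor cell tables. The extra feature is a merged model named AK006748,Junb, which lies beside Junb and is given separately.

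The granulocytes were sorted as Gr1+ from the bone marrow of animals aged 12 months. Their 2 libraries are technical replicates of a single biological sample, which gives n = 1. The other 3 libraries held KSL cells, which are c-Kit+, Sca-1+ and lineage-negative and include the blood stem cells. All 3 came from Sca-1+ cells of mice injected with 5-FU (5-fluorouracil, which kills dividing blood cells), transduced with a retrovirus carrying GFP (green fluorescent protein), kept 2 days in medium with stem cell factor (mSCF, 10 ng/ml) and thrombopoietin (mTPO, 100 ng/ml), and sorted again as GFP+ KSL cells. They differed in the virus, a knockdown control, a knockdown of the long non-coding RNA LncHSC-1 or a knockdown of LncHSC-2, with 1 library each. The cultured KSL cells had therefore all seen 5-FU, virus, sorting and cytokines, and the sources used here give neither the ages of the mice nor how many were pooled. They do not name the features of the targeted RNAs either, so the extent of each knockdown was not measured.

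The levels are FPKM, reads per kilobase of gene model and of sequencing depth, which allow genes to be compared within a library. Estimated depth was 19935506 to 24146123 reads in the KSL libraries, and the rescaled counts of the granulocyte replicates summed to 40414961 and 40394825. Granulocyte markers summed to 159356 and 162301 FPKM in the granulocyte replicates and to 124 to 135 FPKM in the KSL libraries, and stem and progenitor markers to 11.7 and 11.8 against 1584 to 1760 FPKM, so both labels matched their defining genes. No KSL group had a second library, so each difference below is between 2 libraries, with no test, and the counting intervals cover counting error only. In such bulk samples fewer cells of a type and less RNA per cell cannot be told apart.

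Most of these genes respond to growth factor and stress signals through the MAP kinases. Those kinases phosphorylate factors bound beside serum response factor (SRF) at CArG boxes, and CREB and ATF proteins at cyclic AMP response elements. Fos and Jun proteins pair to form AP-1. Egr1 is a zinc finger transcription factor, Dusp1 dephosphorylates and so shuts off MAP kinases, and Zfp36 encodes tristetraprolin, which binds AU-rich messenger RNAs and speeds their decay. In neutrophils tristetraprolin and Dusp1 are known as brakes on inflammatory output, and in stem cells Egr1 is known for a part in keeping them quiescent in the marrow.

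The promoters of 5 members are shown because they hold 4 genes that stood highest in the granulocytes by FPKM among those matched, and Jun, the AP-1 partner that did not. They are the 250 bases before the annotated start, on the gene's own strand, from RefSeq for GRCm38.p6, which is not the mm9 build of the expression tables. Of the 10 members, 8 were matched in that table, and Egr1 and Ier2 were not. Capitals mark matches to motifs searched on both strands. In Zfp36 (chr7:28379229-28379478, minus strand) they mark an EGR motif, GCGNGGGCG, and a CArG box. In Fos (chr12:85473640-85473889, plus strand) they mark 2 copies of TGACG, the first part of the cyclic AMP response element, and TATAAA. In Junb (chr8:84978749-84978998, minus strand) they mark TGACG. In Dusp1 (chr17:26508473-26508722, minus strand) they mark TGACG and the full element TGACGTCA, which contains TGACG on each strand. In Jun (chr4:95052223-95052472, minus strand) they mark TGACATCA, the element through which Jun and ATF proteins are known to act on the Jun gene.
Zfp36: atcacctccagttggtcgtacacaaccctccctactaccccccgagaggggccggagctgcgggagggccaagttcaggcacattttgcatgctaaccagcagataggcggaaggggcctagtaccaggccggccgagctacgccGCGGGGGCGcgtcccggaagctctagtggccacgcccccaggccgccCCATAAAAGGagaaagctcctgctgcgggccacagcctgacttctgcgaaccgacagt
Fos: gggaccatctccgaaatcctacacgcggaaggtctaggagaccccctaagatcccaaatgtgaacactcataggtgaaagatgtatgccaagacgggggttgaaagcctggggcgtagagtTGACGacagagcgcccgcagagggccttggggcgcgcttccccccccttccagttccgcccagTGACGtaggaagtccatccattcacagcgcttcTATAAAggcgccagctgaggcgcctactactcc
Junb: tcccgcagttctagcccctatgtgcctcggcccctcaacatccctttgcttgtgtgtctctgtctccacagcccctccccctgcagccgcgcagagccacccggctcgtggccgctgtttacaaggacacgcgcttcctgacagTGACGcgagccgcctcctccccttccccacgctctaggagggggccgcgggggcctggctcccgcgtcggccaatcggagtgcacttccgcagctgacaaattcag
Dusp1: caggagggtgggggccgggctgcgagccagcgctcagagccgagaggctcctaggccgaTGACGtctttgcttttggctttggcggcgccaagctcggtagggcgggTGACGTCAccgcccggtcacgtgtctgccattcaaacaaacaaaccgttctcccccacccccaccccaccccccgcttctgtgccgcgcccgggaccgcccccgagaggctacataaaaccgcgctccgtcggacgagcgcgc
Jun: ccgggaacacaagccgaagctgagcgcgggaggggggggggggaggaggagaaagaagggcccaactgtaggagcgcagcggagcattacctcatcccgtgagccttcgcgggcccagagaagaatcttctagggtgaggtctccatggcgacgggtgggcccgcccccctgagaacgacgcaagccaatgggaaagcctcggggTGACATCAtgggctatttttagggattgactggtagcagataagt

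The CArG box of Zfp36, CC, then 6 bases that are A or T, then GG, lay 58 to 49 bases before the start. A CArG box was in 1 of the 8 matched member promoters and in 1.47% of 32851 promoter windows of the same length. TGACG was in 5 of the 8, namely Atf3, Fosb, Junb, Fos and Dusp1, against 17.8% of all windows. The full TGACGTCA was in 1, Dusp1, at 143 to 136 bases before the start, against 1.55%. The Jun element TGACATCA lay at 45 to 38 bases before the start and was in 2.93% of all windows. GCGNGGGCG was in 2, Fosb and Zfp36, against 4.70%, and TATAAA in 1, Fos, against 12.4%. The AP-1 motif TGANTCA was in 0 of the 8 and in 6.75% of all windows, which says only that these letters are not in these windows. The well-known serum response element of Fos lies further upstream than the window shown.

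Zfp36 was the highest member in the granulocytes. Its gene model lies on chromosome 7, 29161803 to 29164247 in mm9. It stood at 375 and 364 FPKM in the granulocyte replicates, and at 11.7, 13.8 and 10.7 FPKM in the control, LncHSC-1 and LncHSC-2 KSL libraries. Both granulocyte values lay far above all KSL values, but the experiments were scaled separately and no fold is given between them. By rank, Zfp36 was above 99.7% of the 34309 symbols shared by both kinds of table in the granulocytes and above 81.1% of them in the control KSL library.

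Fos and Junb, a dimer partner pair of AP-1, came next. Fos (chromosome 12, 86814851 to 86818219) was at 160 and 163 FPKM in the granulocytes, and at 4.08, 5.35 and 3.56 FPKM in the control, LncHSC-1 and LncHSC-2 KSL libraries. Junb (chromosome 8, 87500808 to 87502647) was at 151 and 153 FPKM in the granulocytes, and at 18.4, 23.0 and 19.5 FPKM in the same 3 KSL libraries. The granulocyte ranges of Fos and Junb did not overlap, although they were close, while in each KSL library Junb lay several times above Fos. The percentile of Fos was 72.0 in the control KSL library and 99.2 in the granulocytes, and that of Junb 85.9 and 99.2. The neighbouring feature AK006748,Junb was at 0.165 and 0.124 FPKM in the granulocytes and at 1.68 to 2.18 FPKM in the KSL libraries, so little of the signal named Junb is in the merged model.

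Dusp1 and Ier2 completed the members above 90 FPKM in the granulocytes. Dusp1 (chromosome 17, 26642536 to 26645417) was at 140 and 138 FPKM there, and at 4.56, 5.74 and 4.53 FPKM in the control, LncHSC-1 and LncHSC-2 libraries. Ier2 (chromosome 8, 87185230 to 87186751), a small growth-factor-induced nuclear protein gene without introns, was at 95.1 and 92.5 FPKM in the granulocytes, and at 32.2, 34.9 and 34.9 FPKM in the 3 KSL libraries. Ier2 was the highest member in every KSL library, while 4 members lay above it in the granulocytes. Jund (chromosome 8, 73221638 to 73224515), the Jun family member that is usually expressed in resting cells, was at 30.9 and 30.6 FPKM in the granulocytes against 12.9, 17.1 and 14.7 FPKM.

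Jun, Atf3, Egr1 and Fosb were low in the granulocytes. Jun (chromosome 4, 94715727 to 94718913) was at 8.02 and 8.50 FPKM there, and at 3.34, 4.79 and 4.48 FPKM in the control, LncHSC-1 and LncHSC-2 libraries. Atf3 (chromosome 1, 192994176 to 193007212), a stress-induced ATF family repressor gene, was at 3.37 and 3.52 FPKM, and at 1.43, 1.77 and 1.33 FPKM. Fosb (chromosome 7, 19888045 to 19895394) was at 0.180 and 0.170 FPKM, and at 0.848, 0.775 and 0.521 FPKM. The ranges of Jun and Atf3 lay higher in the granulocytes and that of Fosb higher in the KSL libraries, again on separate scales.

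Egr1 (chromosome 18, 35020861 to 35024610) was at 3.35 and 3.40 FPKM in the granulocyte replicates, and at 13.96, 19.7 and 17.0 FPKM in the control, LncHSC-1 and LncHSC-2 KSL libraries. It was among the 3 highest members in each KSL library and the next to lowest in the granulocytes. Its percentile was 83.0 in the control KSL library and 79.3 in the granulocytes, and that of Fosb was 63.3 and 59.6. The other 8 members had the higher percentile in the granulocytes. That count was also 8 with either technical replicate alone, among symbols with at least 1 FPKM, and by FPKM as a share of the summed FPKM. The last measure was chosen after the data were seen. The share of all shared symbols with the higher percentile in the granulocytes is not given here. Fewer features reached 5 FPKM in the granulocyte replicates, 6059 and 6069 against 9108 in the control KSL library. The same FPKM can therefore rank higher there: Egr1 at 3.37 FPKM was at percentile 79.3, while Dusp1 at 4.56 FPKM in control KSL was at 72.8.

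**Figure D1:**
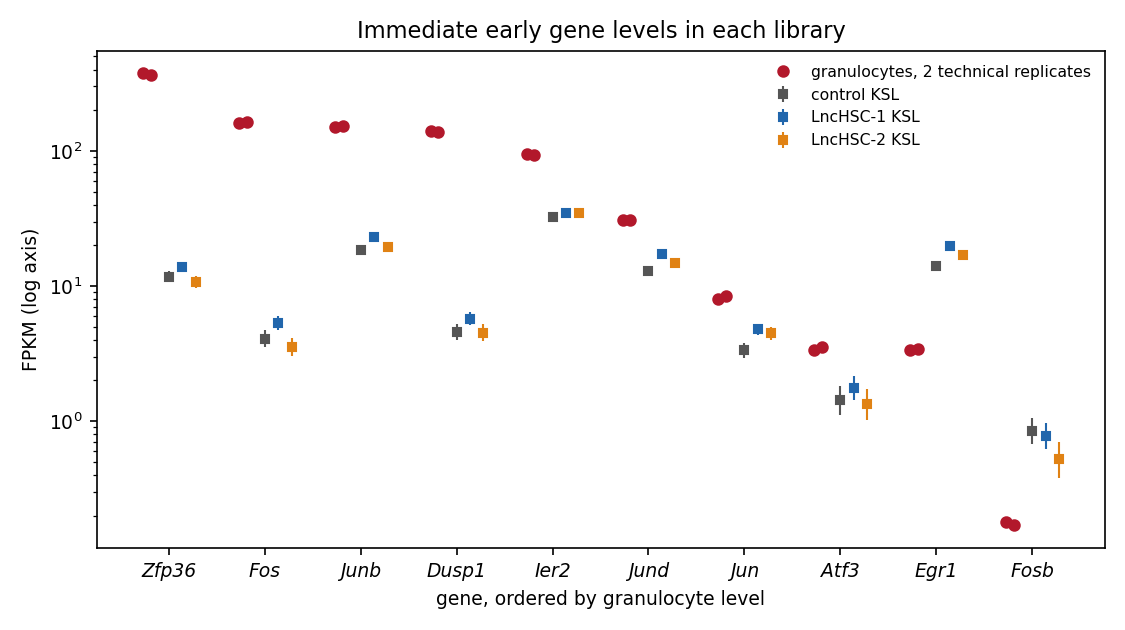
FPKM of each member on a log axis in the 2 granulocyte technical replicates (circles) and in the 3 KSL libraries (squares, bars are 95% Poisson intervals of the estimated reads); the 2 experiments were scaled separately. Granulocyte values run from 0.170 for Fosb to 375 for Zfp36, while KSL values run from 0.521 for Fosb to 34.9 for Ier2.

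The order of the members differed between both cell populations, with only Fosb, the lowest, at the same place in every library. In the granulocytes the order by mean FPKM was Zfp36, Fos, Junb, Dusp1, Ier2, Jund, Jun, Atf3, Egr1 and Fosb, and the ranges of the technical replicates overlapped only for Atf3 and Egr1. The largest difference between the replicates of any member was 0.09 on the log2 scale, for Fosb. In the control KSL library the order was Ier2, Junb, Egr1, Jund, Zfp36, Dusp1, Fos, Jun, Atf3 and Fosb. There the 95% counting interval of the ratio of neighbours included 1 for Egr1 and Jund (0.990 to 1.19), for Jund and Zfp36 (0.981 to 1.23) and for Dusp1 and Fos (0.915 to 1.36), so the order of those pairs was not resolved at this depth. For Fos over Jun it was 1.01 to 1.48. The LncHSC-1 library had the same order, with an interval that included 1 for Dusp1 and Fos and for Fos and Jun. The LncHSC-2 library had it with Fos and Jun exchanged, at 1.04 to 1.52 for Jun over Fos, and there only the interval for Dusp1 and Jun included 1.

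**Figure D2:**
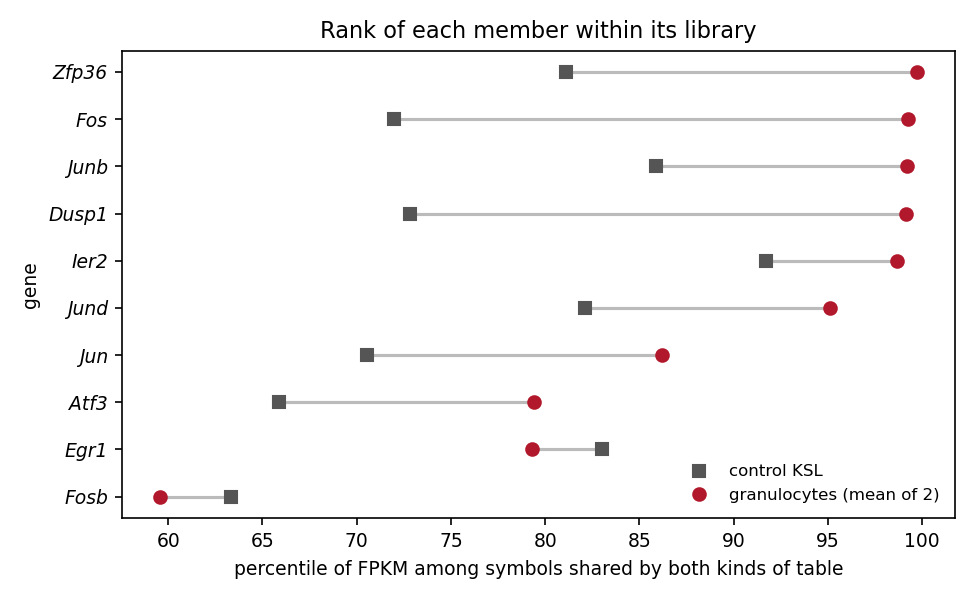
Percentile of each member's FPKM among the symbols shared by both kinds of table (horizontal axis), in the control KSL library (squares) and in the granulocytes (circles, mean of 2 technical replicates), with genes ordered by granulocyte level. Zfp36, Fos, Junb and Dusp1 lie above 99 in the granulocytes, and Egr1 and Fosb lie to the left of their KSL values.

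Ratios between genes of 1 family need no scaling between experiments, because both values come from the same library. Junb made up 79.6% of the summed FPKM of Jun, Junb and Jund in the granulocytes, Jund 16.1% and Jun 4.32%. In the KSL libraries Junb made up 50.4% to 53.1%, Jund 37.3% to 38.2% and Jun 9.65% to 11.6%. The make-up of the Jun family in the 3 KSL libraries thus spanned under 3 percentage points for each gene, and the granulocytes lay outside each of those ranges. The technical replicates of the granulocytes gave 79.5% and 79.7% for Junb.

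Within the Fos family, Fos made up 63.2% of the summed FPKM in the granulocytes and 44.3%, 51.5% and 46.1% in the control, LncHSC-1 and LncHSC-2 libraries. The rest was almost all Fosl2 in the granulocytes (36.7%, at 95.04 and 92.9 FPKM), while the KSL cells held Fosl1 (26.4% to 27.9%), Fosl2 (14.6% to 20.7%) and Fosb (6.75% to 9.20%). Fosl1 and Fosl2 encode the Fos-related antigens, which lack the strong activation domain of Fos. The Fos family together stood at 1.34 times the Jun family in the granulocytes and at 0.267, 0.231 and 0.199 times in the 3 KSL libraries. The ratio of Fos to Jun alone was 20.02 and 19.2 in the granulocyte replicates and 1.22, 1.12 and 0.794 in the control, LncHSC-1 and LncHSC-2 libraries.

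The tristetraprolin family, whose members bind the same AU-rich elements, had the widest shift in make-up of the 3 families compared. Zfp36 made up 79.8% of its summed FPKM in the granulocytes and 5.41% to 7.01% in the KSL libraries. Zfp36l2 made up 88.4% to 90.1% in the KSL libraries, at 167, 173 and 178 FPKM in the control, LncHSC-1 and LncHSC-2 libraries, and 17.6% in the granulocytes at 81.3 FPKM. Zfp36l1 stayed a minor part, at 2.63% in the granulocytes and 4.53% to 4.66% in the KSL cells. These shares are of transcript and not of protein.

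**Figure D3:**
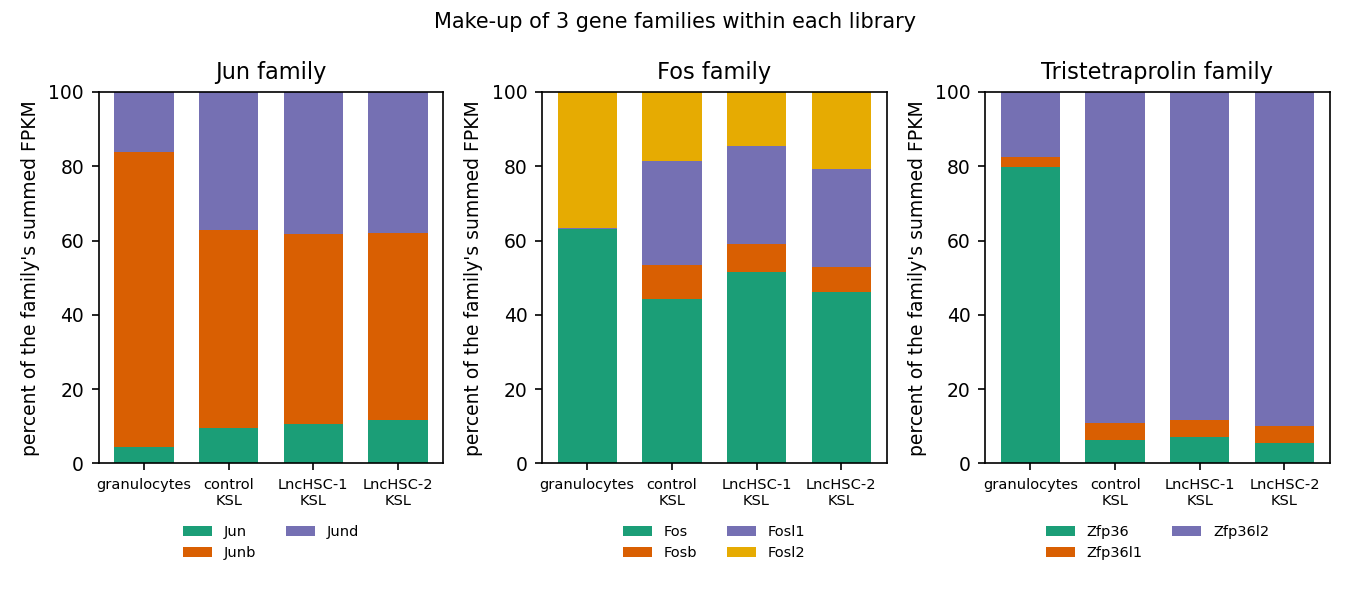
Share of each gene in its family's summed FPKM (vertical axis, percent) in the granulocytes (mean of 2 technical replicates) and in the 3 KSL libraries, for the Jun, Fos and tristetraprolin families. Zfp36 takes 79.8% of its family in the granulocytes and at most 7.01% in KSL cells, and Fosl1 takes 26.4% to 27.9% of the Fos family in KSL cells against 0.0345% in granulocytes.

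Of the 10 members, 9 were higher with LncHSC-1 knocked down than in the control library, with Fosb the exception. The background was 43.8% higher among the 9153 features with a mean of at least 5 FPKM over the 3 KSL libraries, of which 5 are members, namely Ier2, Junb, Egr1, Jund and Zfp36. The median log2 ratio of FPKM + 1 was 0.29 over the 10 members and 0.31 over those 5, against −0.02 over all features. None of the 10 reached 2-fold on that scale, as 1.06% of all features did in either direction, and none reached 1.5-fold. The counting intervals, which carry no pseudocount, lay above 1 for 8 members and included 1 for Atf3 and Fosb.

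Jun and Egr1 were furthest above control. Jun, at 3.34 FPKM in control against 4.79, was 1.43-fold higher (95% counting interval 1.23 to 1.68, on 256 and 428 estimated reads). Egr1, at 13.96 against 19.7 FPKM, was 1.41-fold higher (1.30 to 1.52, on 1030 and 1691 reads). On the log2 scale of FPKM + 1, the Egr1 ratio of 0.47 was exceeded by 2.11% of all features at the floor. Jund, at 12.9 against 17.1 FPKM, was 1.33-fold higher (1.22 to 1.45).

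Fos, Dusp1 and Junb followed closely. Fos was 1.31-fold higher in the LncHSC-1 library (1.09 to 1.57, on 200 and 305 reads), Dusp1 1.26-fold (1.05 to 1.51) and Junb 1.25-fold (1.14 to 1.37). Zfp36 was 1.17-fold higher (1.04 to 1.32), and Ier2, the highest member, 1.08-fold, with a lower bound at 1.00. Atf3, on 66 and 95 reads, had a ratio of 1.23 whose interval of 0.893 to 1.72 includes 1, and Fosb, on 78 and 83 reads, one of 0.914 (0.662 to 1.26). Ier2 and Egr1, both among the members with the most reads, had intervals that did not overlap.

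Some markers of other cell types were also higher in this library than in control. The summed FPKM of 12 B lineage markers was 61.1, 110 and 63.9 in the control, LncHSC-1 and LncHSC-2 libraries, with 10 of the 12 above control in the second of these. In the same order of libraries, the B cell coactivator gene Pou2af1 was at 6.89, 17.0 and 8.004 FPKM, the adaptor gene Blnk at 4.26, 9.53 and 4.75, and the antigen receptor chain gene Cd79a at 11.6, 22.0 and 11.5 FPKM. The B lineage factor Pax5 was at 0.867, 2.49 and 1.12 FPKM, and Ebf1 at 0.454, 0.585 and 0.341 FPKM. The summed FPKM of 12 monocyte, macrophage and dendritic markers was 165, 283 and 174, with 11 of 12 higher. Of all features at the floor, 43.8% were higher than control. The marker counts here take genes at any level, and only 6 markers were at the floor in each of these 12-gene lists. Cd74 (73.7, 143 and 83.0 FPKM), H2-Aa (27.4, 51.4 and 29.5) and H2-Eb1 (16.3, 27.7 and 15.9) were furthest above control in FPKM. Ly86 and Mpeg1 were also higher, at 10.8 against 6.42 and 24.3 against 17.7 FPKM. Csf1r (2.24 and 2.31), Emr1 (2.79 and 2.82) and Ccr2 (3.04 and 3.25) differed little between the control and LncHSC-1 libraries. T and NK lineage sums were 69.0, 74.6 and 63.9, most of it from Nkg7 at 56.0, 55.2 and 51.8 FPKM. Of these 11 markers, 8 exceeded control with LncHSC-1 knocked down, and only 3 of the 11 were at the floor. Thy1 was at 6.44, 9.87 and 5.55 FPKM, and Lck at 4.91, 6.39 and 4.56 FPKM. Erythroid sums were 137, 133 and 114.5, and megakaryocyte sums 584, 748 and 719, higher in both knockdown libraries. No marker of these lists was at 0 in all 3 libraries. The part of these cells in the higher immediate early gene levels was not tested.

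In the LncHSC-2 knockdown library 5 members were higher than in control and 5 were lower, against 52.1% of all features higher. The median log2 ratio of the 10 members was 0.04, and that of all features was 0.00. Of the 5 members at the floor, which the background uses, 4 were higher, with a median of 0.11. Again 0 members reached 2-fold, against 0.951% of all features. Jun, at 3.34 against 4.48 FPKM, was 1.34-fold higher (1.14 to 1.59), Egr1, at 13.96 against 17.0 FPKM, 1.22-fold (1.12 to 1.33) and Jund, at 12.9 against 14.7 FPKM, 1.14-fold (1.04 to 1.25). These 3 were the only members with an interval above 1. With the deposited count columns, not centred, the log2 ratio fell from 0.269 to 0.140 for Egr1 and from 0.181 to 0.0484 for Jund.

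Junb and Ier2 had ratios of 1.06 (0.961 to 1.17) and 1.08 (0.996 to 1.18), and both turned below control when the deposited count columns were used without centring. The interval of Fosb lay below 1, at 0.614 (0.413 to 0.892), on 45 estimated reads against 78. Fos had a ratio of 0.871 (0.706 to 1.08), Zfp36 of 0.912 (0.798 to 1.04), Atf3 of 0.930 (0.642 to 1.34) and Dusp1 of 0.992 (0.811 to 1.21). All 4 intervals include 1, so no difference of these genes was detectable at this depth. Both knockdown ratios share the same control library, so they are not independent of each other.

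Set directly against each other, without the control library, the LncHSC-1 library was higher than the LncHSC-2 library for all 10 members, against 40.4% of all features. The median log2 ratio was 0.22 over the members, 0.20 over the 5 at the floor and −0.03 over all features. None of the 10 reached 2-fold on the FPKM + 1 scale, as 1.15% of all features did. Fos was the member furthest apart by that measure, at 5.35 against 3.56 FPKM, a log2 ratio of 0.48 with a counting interval of the fold from 1.24 to 1.82. The counting interval lay above 1 for 7 members, Fos included. Fosb was 1.49-fold higher (1.03 to 2.20), on only 83 and 45 estimated reads. Zfp36 was 1.29-fold higher (1.13 to 1.46), Dusp1 1.27-fold (1.05 to 1.53) and Junb 1.18-fold (1.07 to 1.29). Jund (1.07 to 1.26) and Egr1 (1.07 to 1.25) were both 1.16-fold higher. Jun, Ier2 and Atf3 had intervals that include 1. Atf3 was 1.33-fold higher (0.948 to 1.87), and Ier2 was at 34.9 FPKM in both.

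**Figure D4:**
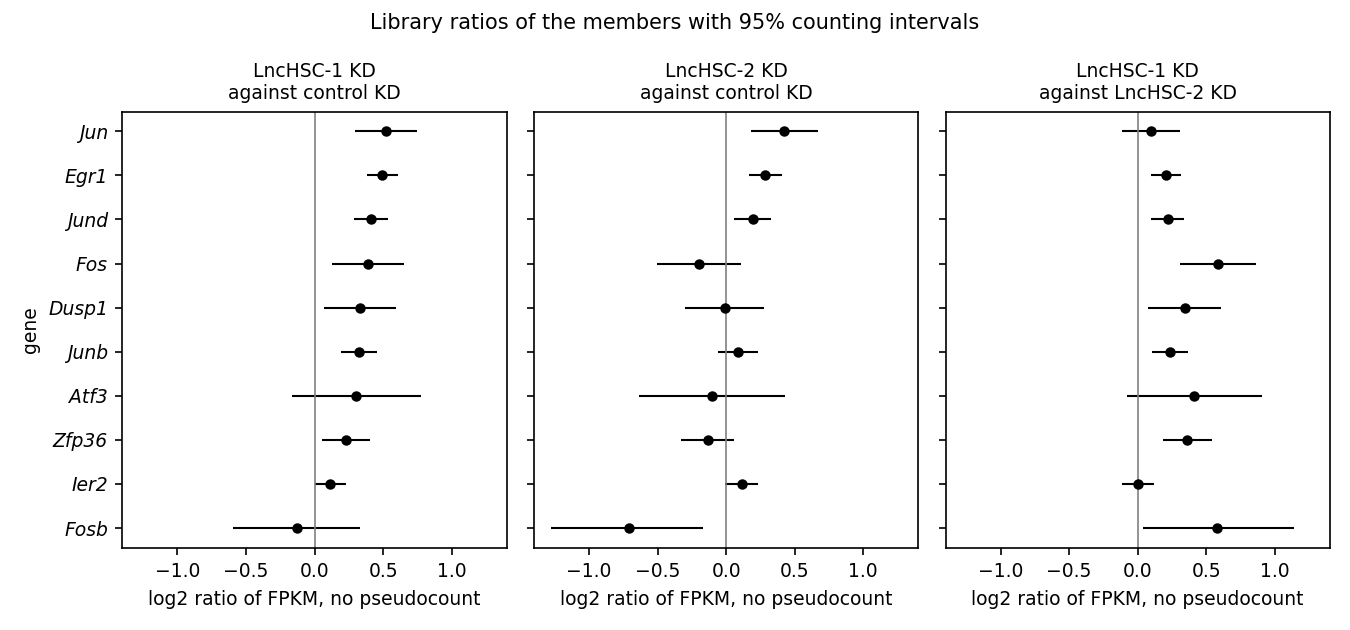
Log2 ratio of FPKM without a pseudocount (horizontal axis) for the 10 members in 3 comparisons of single libraries; points are ratios and bars are 95% counting intervals. Of the intervals against control, 8 lie above 0 for LncHSC-1 and 3 for LncHSC-2.

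**Figure D5:**
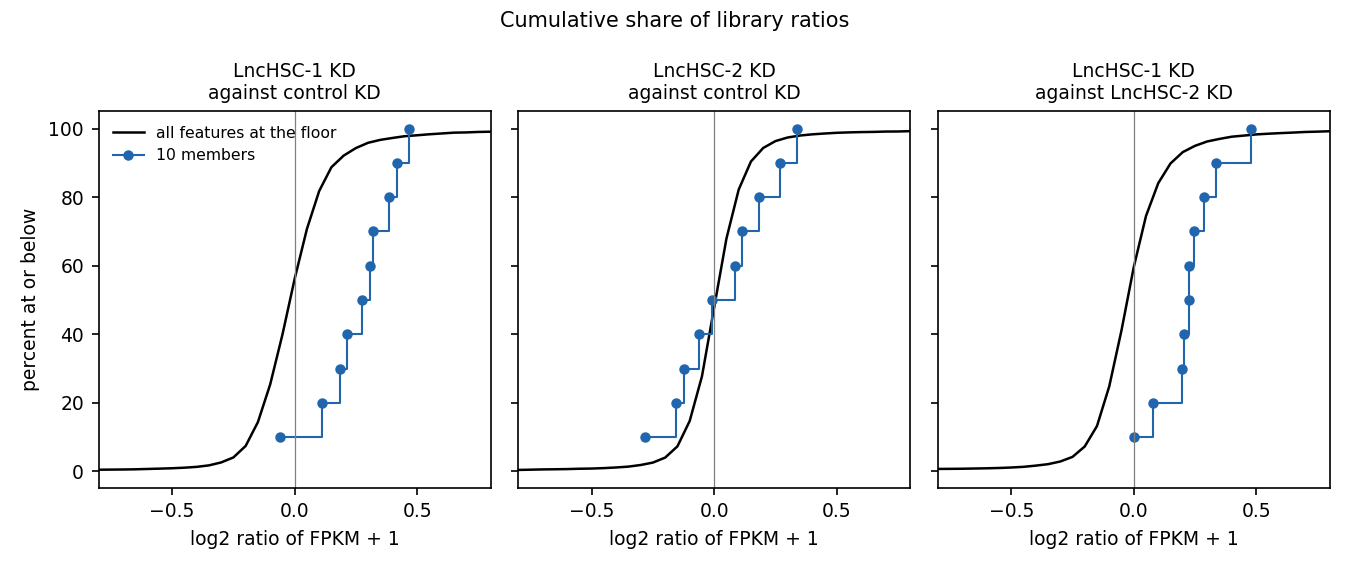
Cumulative percent (vertical axis) of the log2 ratios of FPKM + 1 (horizontal axis) for all 9153 features with a mean of at least 5 FPKM (black line) and for the 10 members (blue points), in the same 3 comparisons. The member curve lies to the right of the black line for LncHSC-1 against control, with a median of 0.29 against −0.02, and crosses it for LncHSC-2.

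The remaining immediate early genes had smaller median ratios than the members. Of 42 on a separate list, 20 were at or above 5 FPKM in the KSL libraries, and 13 of these lay above control in the LncHSC-1 library, with a median log2 ratio of 0.04 and 0 past 2-fold. In the LncHSC-2 library 9 of the 20 were higher, with a median of −0.03, and for LncHSC-1 against LncHSC-2, 13 of the 20 were higher (median 0.08). The share of all features higher in these comparisons was 43.8%, 52.1% and 40.4%, as above, and the difference between the list and the members was not tested. The eIF2α phosphatase subunit gene Ppp1r15a was at 9.49, 12.3 and 12.9 FPKM in the control, LncHSC-1 and LncHSC-2 libraries, and Gadd45b at 6.32, 8.03 and 7.12 FPKM. The Krüppel-like factor Klf10 was at 12.8, 10.1 and 12.2 FPKM, and the circadian repressor Bhlhe40 at 10.7, 10.6 and 8.34 FPKM. In the granulocytes the highest of the list were the survival gene Mcl1 at 247 FPKM, the antiproliferative gene Btg2 at 107 and the G protein regulator Rgs2 at 93.2. Btg2 was at 6.02, 7.64 and 5.94 FPKM in the KSL libraries.

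Other AP-1 and ATF family genes varied in both directions. Of 12 at the floor, 7 lay above control in the LncHSC-1 library (median 0.05) and 8 in the LncHSC-2 library (median 0.04). Over all features at the floor the shares were 43.8% and 52.1%. Atf5 was at 5.94, 9.25 and 6.44 FPKM in the control, LncHSC-1 and LncHSC-2 libraries, and the interferon-inducible Batf2 at 5.41, 8.31 and 5.77 FPKM. Atf2, a Jun partner, was lowest in the LncHSC-1 library, at 13.8 FPKM against 19.6 in control, a log2 ratio of −0.48, and its log2 ratio in the LncHSC-2 library was 0.03. Atf6 was at 7.93, 8.63 and 9.10 FPKM. Besides Fosl2, the granulocytes held Atf4 at 49.4 and the small Maf gene Mafg at 47.9 FPKM.

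Of 18 upstream kinases and SRF partners at the floor, 7 were higher in the LncHSC-1 library (median −0.04) and 6 in the LncHSC-2 library (median −0.03), with 0 past 2-fold. Higher shares over all features, here and for the feedback inhibitors below, were 43.8% and 52.1%. Rps6ka3, which encodes the kinase RSK2, was at 44.3, 31.5 and 45.4 FPKM in the control, LncHSC-1 and LncHSC-2 libraries, and the stress kinase gene Mapk8 at 5.89, 4.80 and 5.53 FPKM. In the granulocytes the ERK1 gene Mapk3 was at 172, Rps6ka1 at 131 and the p38 gene Mapk14 at 108 FPKM. Of 8 feedback inhibitors of MAP kinases at the floor, 5 were higher in the LncHSC-1 library (median 0.03) and 3 in the LncHSC-2 library (median −0.09). The nuclear phosphatase gene Dusp2 was at 17.0, 20.6 and 19.1 FPKM in the control, LncHSC-1 and LncHSC-2 libraries, and in the granulocytes it was at 0.737 FPKM while Dusp6 was at 56.8.

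Of 9 EGR partners and tristetraprolin family or partner genes at the floor, 4 were higher in the LncHSC-1 library (median −0.10) and 6 in the LncHSC-2 library (median 0.01). For this list and the next, the shares of all features higher were 43.8% and 52.1%. The deadenylase gene Cnot6 was at 57.2, 41.6 and 54.9 FPKM, and the EGR co-repressor Nab2 at 7.48, 8.55 and 8.58 FPKM. Among transcripts known to be bound by tristetraprolin only 4 of 15 were at the floor in KSL cells, with 3 higher in the LncHSC-1 library (median 0.06) and 2 in the LncHSC-2 library (median −0.10). The chemokine Ccl3 was at 7.66, 11.3 and 8.60 FPKM, Ccl4 at 9.58, 10.2 and 5.39, and Tnf at 5.82, 5.04 and 4.39 FPKM. The granulocytes, which held the most Zfp36, had Il1b at 409, Il1rn at 86.9 and Osm at 72.5 FPKM, but Tnf at 8.30 FPKM.

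Stress programs gave mixed counts. Of 10 heat shock and cell handling genes at the floor, 2 were higher in the LncHSC-1 library (median −0.07) and 4 in the LncHSC-2 library (median −0.06). The inducible heat shock genes Hspa1a and Hspa1b were at 0.00 to 0.217 FPKM in the KSL libraries and at 0.118 and 0.210 FPKM in the granulocytes. Of 8 integrated stress response genes at the floor, 7 were higher in the LncHSC-1 library (median 0.28) and 4 in the LncHSC-2 library (median 0.04). The members had medians of 0.29 and 0.04 over all 10, and 0.31 and 0.11 over the 5 at the floor. A higher median in the LncHSC-1 library was thus not particular to the members. The death-promoting factor Ddit3 was at 12.0, 15.6 and 10.4 FPKM, Trib3 at 4.36, 5.91 and 4.77, and Gdf15 at 5.30, 6.71 and 6.71 FPKM. Ppp1r15a belongs to this list and to that of the other immediate early genes.

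Egr1 had the pair of knockdown ratios furthest from 0 among the members, at 0.47 and 0.27, narrowly ahead of Jun at 0.42 and 0.34. The named genes with the nearest pairs, by Euclidean distance over these 2 log2 ratios, were Il3ra at 0.44 and 0.26, the merged feature of Gp1bb and Sept5 at 0.50 and 0.28, Ufsp1 at 0.46 and 0.31, Sdhaf1 at 0.42 and 0.24, and Trim30b at 0.48 and 0.21. Their distances were 0.0251 to 0.0563, and the likeness rests on 3 libraries with a shared control.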

How the data were processed

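RNA was selected by polyA and sequenced in 5 libraries. Per the submitters' processing notes the build was mm9 and DESeq was used; for the aligner, the counter and the annotation release, not given in the sources used here. FPKM values, per the file headers, were used as the authors deposited them. The KSL count columns, as deposited, hold a signal: read counts that appear scaled by a constant in each library. Of values up to 20 steps, 91.7% to 92.1% fell within 0.1 step of a whole number, and division by the step gave estimated reads. In the granulocyte tables the deposited counts are a score, rescaled and rounded by the authors, used here for totals and for the order of genes per kilobase.

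Log2 ratios used a pseudocount of 1 FPKM, which understates the change of low genes, and the background used features with a mean of at least 5 FPKM over the 3 KSL libraries. The rule of size was 2-fold. Intervals are exact binomial 95% intervals of estimated reads (Poisson for levels) and cover counting error only. They were tested on simulated data. Tools were Python 3.11.15, numpy 2.4.6, scipy 1.17.1 and pandas 2.3.3.

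Named genes are all 10 members, in each other gene list up to 4 with the largest absolute ratio at the floor and up to 3 highest in the granulocytes, and the 5 genes nearest to the member furthest from control. Not every gene this takes is printed. Genes printed outside it were chosen after their values were seen: Pax5, Ebf1, Emr1, Ccr2, Zfp36l1, Fosl1, Hspa1a and Hspa1b. The members and lists were chosen with earlier results of these data known. The B cells that the design text mentions are not analysed here, and 1 marker gene that the rule takes is not reported here.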

Additional observations from a re-analysis of the deposited data

Results flagged for a closer look

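Of the members, 4 exceeded control with LncHSC-1 knocked down and lay below it with LncHSC-2 knocked down, with 1 library per group, and the difference was not tested. Of all 9153 features at the floor, 12.7% had this pair of directions. Of the 4, only Zfp36 is at that floor, so Fos, Dusp1 and Atf3 have lower levels than the features of this share. The log2 ratio of the LncHSC-1 to the LncHSC-2 library, on the FPKM + 1 scale, was 0.48 for Fos, 0.33 for Zfp36, 0.29 for Dusp1 and 0.25 for Atf3. Their intervals against control in the LncHSC-2 library all include a ratio of 1. For Atf3 those of the LncHSC-1 library against control (0.893 to 1.72) and against the LncHSC-2 library (0.948 to 1.87) include 1 as well.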

How the results depend on the processing

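The count of members higher, their median and the count past 2-fold were recomputed with a pseudocount of 0.1, the count columns as deposited and centred, median-of-ratios factors, no floor, a floor of 1 FPKM and named genes only. The count in the LncHSC-1 library against control was 9, and against the LncHSC-2 library 10, in each of these. No floor, a floor of 1 FPKM and named genes only change just the background, so they could not alter a member's value. A pseudocount cannot change a direction either. In the LncHSC-2 library against control the count columns as deposited, in which all features have a median log2 ratio of −0.14, gave 3 members higher in place of 5 and a median of −0.11 in place of 0.04. With them Junb stood at −0.0586 and Ier2 at −0.0320. The share of all features higher was then 10.6% in place of 52.1%, and 85.1% in place of 40.4% for the LncHSC-1 against the LncHSC-2 library. Over single members, 202 of 210 values moved by less than their counting interval, 6 by more, and 2 (Junb and Ier2, above) changed sign. The 202 include the values under the background settings, which could not move. The 6 all came from the count columns as deposited. They were Egr1 and Jund for the LncHSC-2 library against control, and Junb, Jund, Egr1 and Ier2 for the LncHSC-1 against the LncHSC-2 library. No member passed 2-fold under any of these settings. With a pseudocount of 0.1 and with the count columns as deposited and centred, the log2 ratio of Fosb in the LncHSC-2 library against control was −0.61, −0.84 and −0.69, beyond 1.5-fold. With the count columns as deposited and centred, that of the LncHSC-1 to the LncHSC-2 library was 0.73 and 0.61 for Fos and 0.71 and 0.59 for Fosb, also beyond 1.5-fold. No paired analysis was possible because each KSL group has 1 library. With 1 library per group, depth limits Fosb and Atf3 most, at 45 to 95 estimated reads.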
